A study of Mus musculus with 20 samples.

Results

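The clustered histone genes of the mouse were followed in 12 RNA-seq libraries of TH17 cells, CD4 T cells that make interleukin-17. Members were all gene rows whose symbol begins with Hist1h, Hist2h, Hist3h or Hist4h, a choice made on names and not on values. There were 69 of 24862 gene rows: 6 genes of linker histone H1, 19 of H2A, 19 of H2B, 12 of H3 and 13 of H4. By older symbol, 68 members matched a single RefSeq gene (assembly GRCm38.p6), 54 of them on chromosome 13, 10 on chromosome 3, 3 on chromosome 11 and 1 on chromosome 6. RefSeq lists 2 of the members, Hist1h2al and Hist3h2bb-ps, as pseudogenes. Most are short, with 61 genes spanning less than 1000 bases.

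Histones package DNA into nucleosomes: H2A, H2B, H3 and H4 form the core, and H1 binds the linker DNA between cores. The clustered genes are mostly transcribed during S phase, when new chromatin is assembled, under the coactivator Npat. Their mRNAs usually end in a stem-loop, bound by Slbp, instead of a poly-A tail, and are degraded when DNA replication ends. A few clustered genes can also give polyadenylated mRNA. Their human counterparts do so in differentiated cells that have left the cell cycle. Of the genes measured here, Hist1h1c, Hist1h2bc and Hist2h2be were listed as having such counterparts, and the list may not be complete.

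All groups carried the strain label C57BL/6 and held 2 libraries each, and ages are not given in the labels. CNS TH17 cells and Ileum TH17 cells were GFP+ cells sorted from tissue suspensions, with RNA made into libraries by a low-input SMART-Seq v4 kit. TH17(β) cells were naive CD4+ T cells stimulated through CD3 and CD28 with TGF-β1 and IL-6, with IL-4 and IFN-γ blocked, either with c-Rel overexpressed, labelled Ad-c-Rel, or without, labelled Ad-control. TH17(23) cells were cultured in the same way with IL-23, IL-1β and IL-6. They came from miR-21-/- or Control mice, and their libraries were made with a TruSeq Stranded Total RNA kit. How GFP was driven, the length of culture and the library kit of the Ad libraries are not given clearly in the labels. Because kits differ in how they recover RNA without a poly-A tail, values were compared within each pair of groups and not between pairs. Nothing in the labels says whether the 2 libraries of a group came from separate mice or cultures, so that p-values measure the spread between these libraries, which may be technical.

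Gene counts totalled 15421743 to 19930807 per library in the sorted and Ad groups and 32766097 to 36711252 in the miR-21 pair. Reads that could not be assigned to 1 gene made up 1.90 to 3.04% of each library as ambiguous reads, and a further 2.25 to 3.53% as reads aligned to several places in the sorted and Ad libraries. That second class was 0 in all 4 libraries of the miR-21 pair. Many histone genes are nearly identical copies, and 5 members overlap another RefSeq gene, so that reads of such members may be shared out or lost. No read was counted in any library for 10 members, among them the testis genes Hist1h2aa and Hist1h2ba and the near-identical copies Hist2h3c1 and Hist2h3c2. In the label checks, Rel (c-Rel) had 57.5 and 61.9 CPM (counts scaled to a library total of 1000000 gene counts) in Ad-c-Rel, against 10.8 and 7.02 CPM in Ad-control. Mir21a had 0 and 0 counts in miR-21-/-, against 25 and 20 counts in Control.

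The promoters of 3 H1 genes are shown. Hist1h1c was called in both of the comparisons that gave any call, and Hist1h1d and Hist1h1e in neither. Hist1h1a and Hist1h1t lie nearer to Hist1h1c, did not pass the filter in either comparison and are not shown. Each sequence is the 250 bases before the RefSeq start on GRCm38.p6, read 5′ to 3′ on the gene's own strand. The capitals mark the H1 box AAACACA, the CCAAT box and the TATA box TATAAA, or its reverse complement TTTATA. Hist1h1c is taken from chr13:23738557-23738806 on the plus strand, Hist1h1d from chr13:23554782-23555031 on the plus strand and Hist1h1e from chr13:23622559-23622808 on the minus strand.
Hist1h1c: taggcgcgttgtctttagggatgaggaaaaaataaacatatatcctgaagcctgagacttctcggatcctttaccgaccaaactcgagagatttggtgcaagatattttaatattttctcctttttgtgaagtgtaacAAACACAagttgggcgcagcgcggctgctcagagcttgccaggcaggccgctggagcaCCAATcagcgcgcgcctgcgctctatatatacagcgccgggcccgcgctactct
Hist1h1d: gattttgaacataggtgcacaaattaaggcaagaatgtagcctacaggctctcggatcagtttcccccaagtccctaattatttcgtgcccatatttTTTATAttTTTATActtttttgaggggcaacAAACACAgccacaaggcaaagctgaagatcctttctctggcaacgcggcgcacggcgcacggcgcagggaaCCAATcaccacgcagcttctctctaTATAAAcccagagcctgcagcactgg
Hist1h1e: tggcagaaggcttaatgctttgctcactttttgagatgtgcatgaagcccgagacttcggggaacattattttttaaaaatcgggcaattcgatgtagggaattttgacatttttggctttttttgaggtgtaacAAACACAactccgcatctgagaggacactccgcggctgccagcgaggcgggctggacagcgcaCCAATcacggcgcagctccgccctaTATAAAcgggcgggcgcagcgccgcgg
In these windows the H1 box begins at −112 relative to the start in Hist1h1c, −122 in Hist1h1d and −115 in Hist1h1e, and CCAAT follows at −54 in Hist1h1c, −51 in Hist1h1d and −52 in Hist1h1e. TATAAA itself is found at −26 in Hist1h1d and at −27 in Hist1h1e, and is not in the Hist1h1c window in those letters. Of the H1 genes not shown, Hist1h1t also lacks TATAAA, and Hist1h1a lacks the H1 box. A match is a description of letters and says nothing about a factor.

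Across the 61 members with a RefSeq promoter of 300 bases (250 before and the rest after the start), motifs were searched on both strands. CCAAT was present in 52 members (85.2%), against 41.1% of 27025 genes. It was in 100% of the H1, H2A, H2B and H3 windows and in 25% of the H4 windows. TATAAA was in 35 members (57.4%), against 15.7% of all genes. The octamer ATTTGCAT was in 14 members (23%), against 1.97%. These were 41.2% of H2A and 43.8% of H2B windows, and none of H1, H3 or H4. The H1 box was in 5 of the 6 H1 windows (83.3%), and in 8.22% of all genes. It was also in 11.8% of H2A and 12.5% of H2B windows, and in none of H3 or H4. An E2F match, TTTGGCGC or TTTCGCGC, was in 9 members (14.8%), against 0.929%. Among these 61 members, 9 H2A and H2B pairs start head to head within 400 bases. Their windows overlap and are not separate observations.

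**Figure D1:**
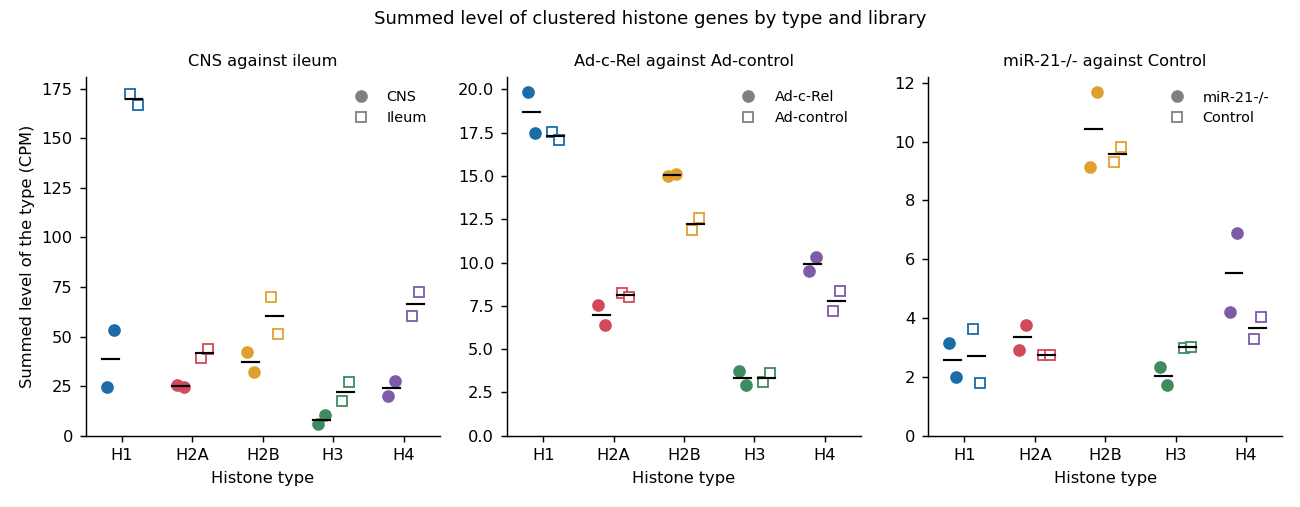
Summed CPM of the members of each histone type (vertical axis) in each library, with the 3 pairs of groups in panels of their own. Points are libraries and short bars are means of 2. All 5 types are lower in both CNS libraries than in both ileum libraries, H1 with 24.7 and 53.2 CPM against 172 and 167 CPM.

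Clustered histone genes took fewer counts in the CNS libraries. Summed over all members they had 119 and 148 CPM in CNS TH17 cells, against 359.8 and 361 CPM in Ileum TH17 cells, a ratio of means of 0.370. Hist1h1c, which encodes the linker histone that RefSeq names H1f2, was lower in CNS TH17 cells, and it was the 1 member called among the 39 that passed the filter on low counts. None was called higher. Called means an adjusted p under 0.05 from edgeR's quasi-likelihood test with Benjamini-Hochberg adjustment over all 12038 genes tested. Of all genes, 9.66% were called, 5.66% lower and the rest, 4.0%, higher.

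Among the 39 members tested, 37 had a fitted change below 0, where 47.3% of all genes did. Their median log2 fold change was −1.83, against 0.08 over all genes. By type, all 4 H1, 10 H2A, 6 H3 and 7 H4 genes tested were below 0, as were 10 of 12 H2B genes, and the type medians were −2.59 for H1, −1.48 for H2A, −1.90 for H2B, −2.01 for H3 and −1.62 for H4. Without CNS replicate 1 these medians were −6.29 for H1, −4.05 for H2A, −6.87 for H2B, −1.24 for H3 and −2.33 for H4, so that neither their size nor their order was stable. These values rest on members that passed the filter in part through the higher group, and 17 of the 56 members with a count in these libraries did not pass it. The CNS and ileum libraries did not overlap for 27 members lower in CNS TH17 cells (21.6% of all genes) and for 2 members higher (38.9% of all genes), and they overlapped for the other 10. At an unadjusted p under 0.05 there were 2 members, both lower, where 24.4% of all genes lay.

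Of the types, H1 stood lowest in CNS TH17 cells relative to ileum. Its summed level was 24.7 and 53.2 CPM in CNS, against 172 and 167 CPM in ileum, a ratio of means of 0.229. The other 5 H1 genes, summed without Hist1h1c, had 4.28 and 2.81 CPM in CNS, against 16.2 and 12.03 CPM in ileum. The core histones H4 and H3 had ratios of 0.360 and 0.368. H4 had 20.0 and 27.8 CPM in CNS, against 60.4 and 72.5 CPM in ileum, and H3 had 6.00 and 10.4 CPM against 17.5 and 27.1 CPM. H2A and H2B had the ratios nearest to 1, and 1 member held a large part of each of these sums. H2A had 25.7 and 24.5 CPM in CNS, against 39.2 and 43.9 CPM in ileum, a ratio of 0.605, and H2B had 42.4 and 32.2 CPM against 70.2 and 51.1 CPM, a ratio of 0.616. In H2A, the gene Hist3h2a alone had 14.3 and 16.0 CPM in CNS, against 16.5 and 16.1 CPM in ileum. The H2B genes other than Hist1h2bc had 17.1 and 14.8 CPM in CNS, against 30.2 and 34.0 CPM in ileum. These other H2B genes were summed after the values were seen. The groups did not overlap for any type, and with 2 libraries against 2 an exact two-sided permutation test cannot go below p = 0.33.

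Hist1h1c lies on GRCm38.p6 at chr13:23738807-23739531 on the plus strand. It had 343 and 968 counts in CNS TH17 cells, against 2539 and 2637 counts in Ileum TH17 cells. In CPM this was 20.4 and 50.3 in CNS (35.4 ± 21.2, SD, n = 2), against 156 and 155 in ileum (155.5 ± 1.02, SD, n = 2). Both CNS libraries lay below both ileum libraries, and they differed from each other by more than the ileum libraries did. The ratio of the CPM means was 0.2275. In the fit, which scales the libraries further, the log2 fold change was −2.33 (SE 0.468), a 5.02-fold lower level, with an edgeR adjusted p of 0.0397. The change was −3.18 (9.09-fold) without CNS replicate 2 and −1.85 (3.6-fold) without CNS replicate 1. Scaled to 12 T cell identity genes, the change was −1.80 with an adjusted p of 0.06, and over 11 alternatives the adjusted p ranged from 9.65e-13 to 0.06. Of all counts on clustered histone genes, Hist1h1c took 17.2% (95% exact binomial interval 15.5 to 18.9) and 34.0% (32.2 to 35.7) in CNS, against 43.4% (42.1 to 44.7) and 42.8% (41.6 to 44.1) in ileum. Such intervals cover counting error only.

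The other H1 genes were fitted lower without a call. Hist1h1e had 33 and 0 counts in CNS, against 104 and 101 in ileum, with a log2 fold change of −2.86 (SE 2.30, adjusted p 0.540). Hist1h1d had 0.892 and 2.81 CPM in CNS, against 2.09 and 5.16 CPM in ileum, so that the groups overlapped (−1.15, adjusted p 0.75). Hist1h1b had 18 and 0 counts in CNS, against 109 and 16 in ileum (−3.055, SE 2.61, edgeR adjusted p 0.566). Neither Hist1h1d nor Hist1h1b is among the members named by rule in this comparison.

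Among H2A genes, Hist3h2a and Hist1h2ae took the most counts. Hist3h2a, on chromosome 11 at 58954685 to 58955192 and overlapping Trim17, had 14.3 and 16.0 CPM in CNS, against 16.5 and 16.1 CPM in ileum (−0.31, SE 0.571, adjusted p 0.820). It was near the level of ileum while most members lay below. Hist1h2ae had 3.92 and 4.68 CPM in CNS, against 8.18 and 7.81 CPM in ileum (−1.09, SE 1.00, adjusted p 0.597). Hist1h2ai is given after its values were seen. It had 3 and 3 counts in CNS, against 62 and 65 in ileum (−4.65, SE 1.89, adjusted p 0.214).

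Among H2B genes, Hist1h2bc had overlapping groups, with 25.3 and 17.5 CPM in CNS, against 40.0 and 17.1 CPM in ileum (−0.63, SE 0.589, adjusted p 0.605). Hist1h2bj had 1.13 and 1.04 CPM in CNS, against 7.26 and 9.04 CPM in ileum (−3.10, SE 1.24, adjusted p 0.207). The replicates of Hist1h2bj lay close together in both groups, and the gene was not called in the edgeR fit of these 4 libraries. Hist2h2be and Hist1h2bp are given after their values were seen. Hist2h2be went the other way, with 69 and 145 counts in CNS, against 12 and 6 in ileum (3.20, SE 1.61, adjusted p 0.308). Hist1h2bp had 0 and 0 counts in CNS, against 15 and 24 in ileum, at least 14.1-fold lower when the CNS group is set at 3 counts in all.

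Among H3 and H4 genes none was called. Hist1h3f had 12 and 83 counts in CNS, against 44 and 50 in ileum, so that its CNS libraries lay on either side of both ileum libraries (−0.35, adjusted p 0.938). Hist1h3e had 1.49 and 3.38 CPM in CNS, against 4.43 and 5.22 CPM in ileum (−1.18, SE 1.35, adjusted p 0.682). The H4 genes with the most counts were lower in both CNS libraries. Hist1h4d had 13.4 and 16.3 CPM in CNS, against 28.0 and 34.3 CPM in ileum (−1.26, SE 0.461, adjusted p 0.175), the smallest adjusted p of any uncalled member. Hist1h4c had 1.25 and 4.37 CPM in CNS, against 10.9 and 13.9 CPM in ileum (−2.33, SE 1.07, adjusted p 0.266).

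**Figure D2:**
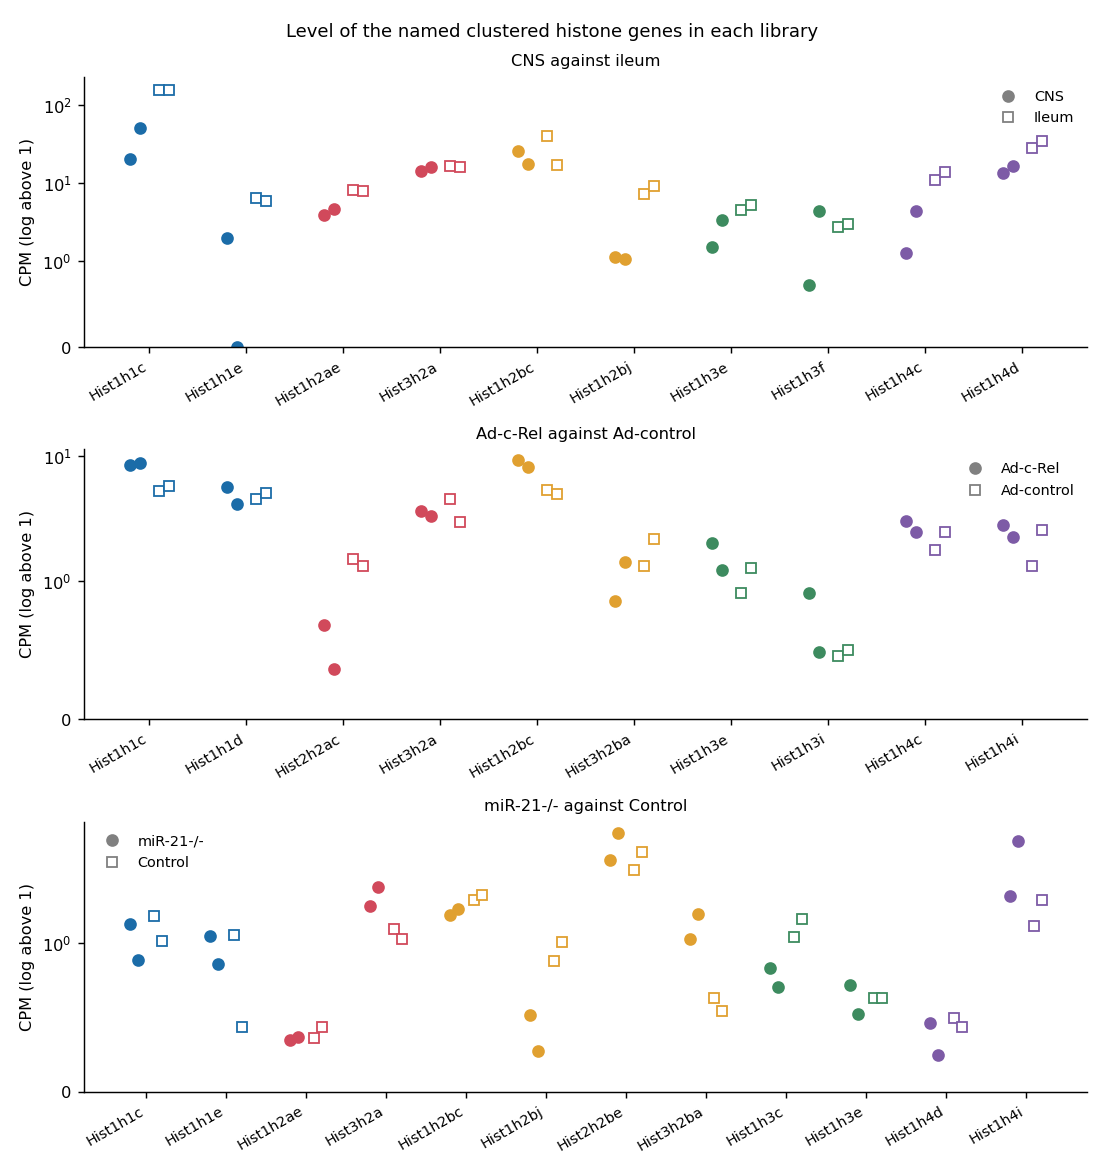
CPM (vertical axis, logarithmic above 1 and linear below) of the members named by rule in each comparison, with a point per library. Hist1h1c sits at 20.4 and 50.3 CPM in CNS, below 156 and 155 CPM in ileum, and at 8.42 and 8.70 CPM in Ad-c-Rel, above 5.25 and 5.67 CPM in Ad-control.

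The sorted libraries differed in how many members they detected. Members with at least 1 count numbered 52 and 27 in CNS TH17 cells, against 52 and 44 in Ileum TH17 cells, and all genes with a count numbered 14224 and 11545 in CNS, against 13927 and 10771 in ileum. Of 34 members with 5 to 50 counts in CNS replicate 1, 19 (55.9%) had 0 counts in CNS replicate 2, near the 59.8% of 2596 other genes. In ileum it was 5 of 31 members (16.1%), against 63.2% of 2879 other genes. The part of these zeros in the changes of low members was not tested. Without CNS replicate 1 the members' median log2 fold change was −4.05.

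**Figure D3:**
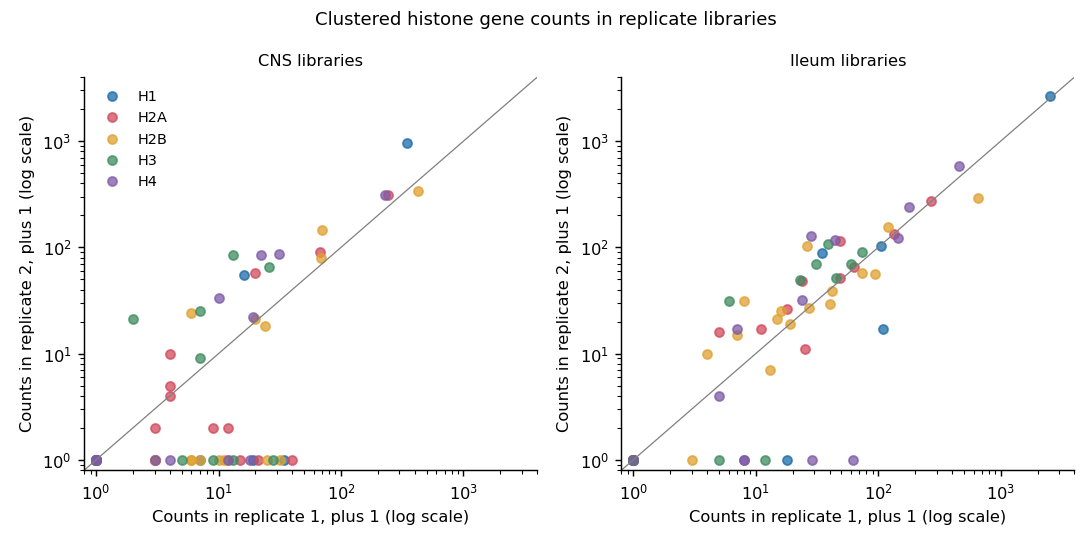
Counts plus 1 of each member in replicate 2 (vertical) against replicate 1 (horizontal) of CNS and of ileum, both on a log scale, with colours for the histone types and a line of equality. In CNS 19 of 34 members with 5 to 50 counts in replicate 1 lie at 0 in replicate 2, and in ileum 5 of 31 do.

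Markers of other cells moved with the CNS and ileum groups. Of 20 myeloid and microglia markers, 19 were called higher in CNS TH17 cells, with a summed level of 28950 and 29870 CPM in CNS, against 3072 and 3339 CPM in ileum, and none at 0 in any library. Of the B and plasma cell markers, 7 of 11 tested were called lower, with 373.5 and 365.8 CPM in CNS, against 4535 and 4399 CPM in ileum, and 3 and 5 of the 12 markers at 0 in CNS, against 1 and 0 in ileum. Neutrophil markers summed to 260.3 and 252 CPM in CNS, against 0.8 and 0.117 CPM in ileum, where 7 and 9 of the 10 were at 0. The 12 T cell identity genes summed to 5665 and 5741 CPM in CNS, against 7414 and 7023 CPM in ileum, with none at 0 and 4 called lower. The part of these cells in the histone values was not tested. In bulk libraries of this kind, fewer cells of a type and less RNA per cell cannot be told apart. Erythroid markers summed to 1.49 and 0 CPM in CNS and to 0 in both ileum libraries, and gut epithelial markers to 20.0 and 18.6 CPM in CNS, against 12.6 and 0 CPM in ileum.

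Scaling changed the balance of calls in this comparison. Scaled to the T cell identity genes, the median of all genes moved up by 0.54 on the log2 scale, and 76.2% of calls were higher in CNS, against 41.4% with the standard scaling. Under that scaling 35 of the 39 members were below 0, with a median of −1.29, and none was called. DESeq2 called 3 members lower, adding Hist1h2ai and Hist1h2bj to Hist1h1c. A fit that shared its estimate of the spread over all 12 libraries called 9 lower and 1, Hist2h2be, higher.

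Of histone genes outside the clusters, most of which give polyadenylated mRNA, 9 were tested and 6 were called lower in CNS TH17 cells. H3f3b, which encodes a replacement variant of H3, had 2361 and 2677 CPM in CNS, against 5777 and 6050 CPM in ileum (log2 fold change −1.43). H2afz, which encodes a variant of H2A, had a change of −1.15 and Cenpa, the centromere variant, of −1.67. With T cell identity scaling, 3 of the 9 were called lower.

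Factors that make clustered histone mRNA were called in part. Of 16 tested, 3 were called lower: Casp8ap2, a subunit of the 3′ processing machinery (−1.73, edgeR adjusted p 0.0326), Slbp (−0.90, 0.0344) and Mif4gd, a partner of Slbp in translation (−0.85, 0.0355). Npat had a change of −0.97 with an adjusted p of 0.231. Of 24 histone chaperones, importers and related genes (the chaperone list), 3 were called lower. These were Nasp (−1.51), Asf1a (−1.81) and Hat1 (−1.11), which encodes a histone acetyltransferase. With T cell identity scaling none of the factors or chaperones was called lower, and 1 factor and 2 chaperones were called higher. The count of factors called lower was 0 without ileum replicate 1 and 1 without any other single library. For chaperones it was 1 without ileum replicate 2 and 2 without any other single library. Of 26 DNA replication genes none was called in the edgeR fit of these 4 libraries, with 18 below 0. Calls lower numbered 3 with DESeq2, 3 without the filter, 5 in the fit over 12 libraries and 1 without CNS replicate 1. Of 19 mitosis genes none was called in that fit or by DESeq2, with 9 below 0, while 4 were called higher without ileum replicate 1 and 1 lower without CNS replicate 1.

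**Figure D4:**
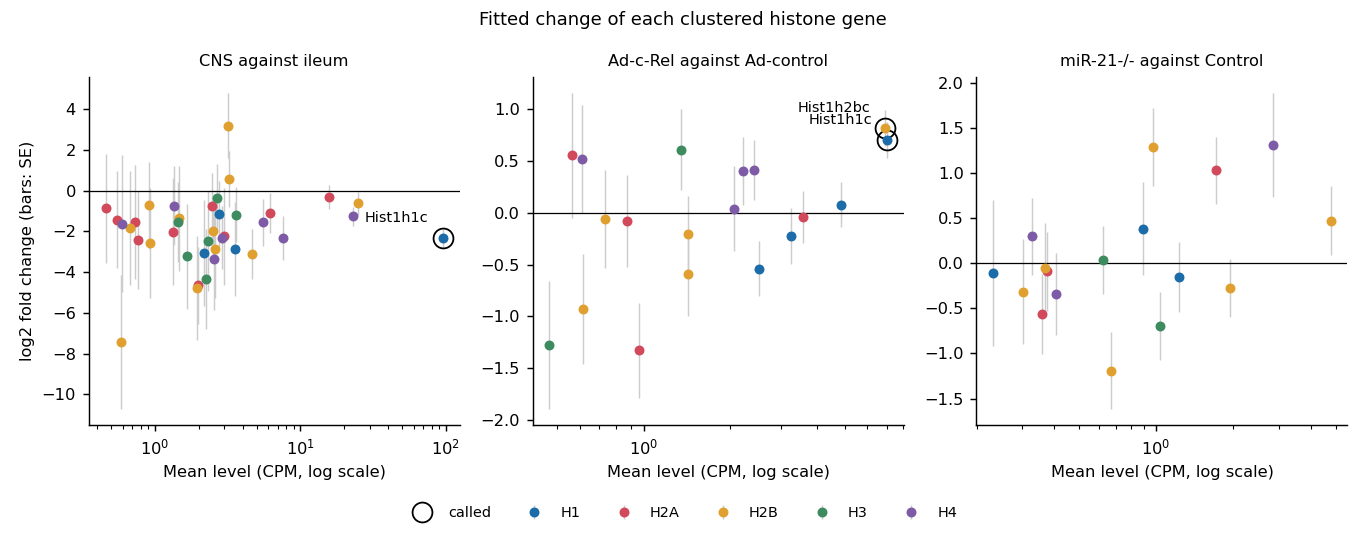
Log2 fold change with its SE (vertical axis) against mean CPM (horizontal axis, log scale) for each member that passed the filter, coloured by histone type, with called members ringed. In CNS against ileum 37 of 39 members lie below 0 and Hist1h1c is the 1 called, while in Ad-c-Rel against Ad-control Hist1h1c and Hist1h2bc are called above 0.

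In TH17(β) cells with c-Rel overexpressed, Hist1h2bc and Hist1h1c rose, and no other clustered histone gene was called. They were 2 of 19 members tested, where 14.3% of all 11711 genes were called, 8.16% higher and 6.12% lower. The members as a whole were balanced, with 10 below 0 and 9 above, a median log2 fold change of −0.04 against −0.01 over all genes, and 51.0% of all genes below 0. At an unadjusted p under 0.05 there were 3 members (28.6% of all genes), and DESeq2 called no member lower. The groups did not overlap for 3 members higher (21.4% of all genes) and 5 lower (37.3%). Of the 58 members with a count, 39 did not pass the filter.

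Hist1h2bc encodes an H2B and lies at chr13:23684199-23692480. It had 163 and 133 counts in Ad-c-Rel, against 82 and 99 in Ad-control, which is 9.27 and 8.10 CPM (8.68 ± 0.833, SD, n = 2) against 5.32 and 4.97 CPM (5.14 ± 0.248, SD, n = 2). Both Ad-c-Rel libraries lay above both Ad-control libraries. Its log2 fold change was 0.82 (SE 0.174) with an edgeR adjusted p of 0.00530, and the call was lost only in the fit over all 12 libraries, with an adjusted p of 1.

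Hist1h1c had 148 and 143 counts in Ad-c-Rel, against 81 and 113 in Ad-control. In CPM it had 8.42 and 8.70 (8.56 ± 0.201, SD, n = 2) in Ad-c-Rel, against 5.25 and 5.67 (5.46 ± 0.295, SD, n = 2) in Ad-control, again without overlap. The log2 fold change was 0.70 (SE 0.171) with an edgeR adjusted p of 0.0121. The call was lost with DESeq2 (0.0881), without Ad-c-Rel replicate 2 (0.0534), without Ad-control replicate 1 (0.0795) and in the fit over all 12 libraries (1).

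Both called genes belong to the 3 listed above as having human counterparts that give polyadenylated mRNA. Together with Hist2h2be, which had a change of −0.20 (adjusted p 0.766), they had 18.8 and 18.3 CPM in Ad-c-Rel, against 11.996 and 12.3 CPM in Ad-control, a ratio of means of 1.53. They took 33.7% (30.7 to 36.8) and 35.1% (31.9 to 38.4) of the counts on clustered histone genes in Ad-c-Rel, against 25.0% (21.9 to 28.3) and 24.8% (22.1 to 27.6) in Ad-control. The other 66 members summed to 36.9 and 33.9 CPM in Ad-c-Rel, against 35.9 and 37.3 CPM in Ad-control, and these groups overlapped. The list of 3 was set with earlier results of these data known and may not be complete. It holds both called genes, so that these sums and shares repeat the 2 calls and are no separate result.

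By type, the summed level of H2B was 15.0 and 15.1 CPM in Ad-c-Rel, against 11.9 and 12.5 CPM in Ad-control, a ratio of 1.23. That difference lay in Hist1h2bc. The other 18 H2B genes, summed after the values were seen, had 5.75 and 6.999 CPM in Ad-c-Rel, against 6.55 and 7.58 CPM in Ad-control, with overlap, and 4 of the 5 H2B genes tested were below 0 with a median of −0.20. H4 had 9.50 and 10.3 CPM against 7.20 and 8.33 CPM, a ratio of 1.28. H2A was lower, at 7.57 and 6.39 CPM in Ad-c-Rel, against 8.24 and 8.03 CPM in Ad-control, a ratio of 0.858. These 3 types did not overlap between groups, while H1 (ratio 1.08) and H3 did. All 4 H4 genes tested were fitted above 0, with a median log2 fold change of 0.41, and none was called.

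The other H1 genes did not follow Hist1h1c to a call. Hist1h1d had 5.63 and 4.14 CPM in Ad-c-Rel, against 4.54 and 5.07 CPM in Ad-control (0.08, adjusted p 0.851). Hist1h1b had 1.93 and 2.07 CPM in Ad-c-Rel, against 3.05 and 3.01 CPM in Ad-control (−0.54, adjusted p 0.203). Hist1h1d overlapped between the groups, and Hist1h1b did not. Hist1h1b is given after its values were seen.

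Among H2A genes, Hist2h2ac had 12 and 6 counts in Ad-c-Rel, against 23 and 26 in Ad-control (−1.33, SE 0.457, adjusted p 0.0658). This uncalled change passed the threshold with T cell identity scaling (adjusted p 0.0432) and without the filter on low counts (0.0463). Hist3h2a had 3.58 and 3.29 CPM in Ad-c-Rel, against 4.54 and 2.96 CPM in Ad-control (−0.04, adjusted p 0.935). Its neighbour on chromosome 11, the H2B gene Hist3h2ba, had 0.853 and 1.4 CPM against 1.30 and 2.16 CPM (−0.60, adjusted p 0.353). Both of these overlapped between groups.

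The H3 and H4 genes with the most counts were fitted above 0 without a call. Hist1h3e had 1.99 and 1.22 CPM in Ad-c-Rel, against 0.908 and 1.25 CPM in Ad-control (0.61, adjusted p 0.331). Hist1h4c had 3.02 and 2.44 CPM against 1.75 and 2.46 CPM (0.41, adjusted p 0.381), and Hist1h4i had 2.79 and 2.25 CPM against 1.30 and 2.56 CPM (0.40, adjusted p 0.456). Each of these overlapped between the groups. Hist1h3i, with 16 and 8 counts in Ad-c-Rel, against 7 and 10 in Ad-control, did not pass the filter.

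No clustered histone gene of the 19 tested was called lower in Ad-c-Rel, where 6.12% of all genes were, while genes of the cell cycle were. The members' changes had a median SE of 0.390, against 0.096 for Rrm2 and 0.097 for Ccna2. A change of a given size was therefore less likely to be called in most members. All 19 mitosis genes were called lower, with a median log2 fold change of −1.23, among them the cyclins Ccna2 (−1.55) and Ccnb2 (−1.62), and none was called in the fit over all 12 libraries. Of 26 DNA replication genes 11 were called lower, such as Rrm2 (−0.65), a subunit of ribonucleotide reductase, and the ligase Lig1 (−0.88). Of 24 genes of the chaperone list 5 were called lower, Asf1b (−0.81) and Chaf1a (−0.66) among them, and 1, Ipo4, higher (0.44). Of 9 histone genes outside the clusters 3 were called lower, namely H2afx (−0.65), Cenpa (−0.51) and H2afv (−0.38). Of 17 factors that make clustered histone mRNA, 1 was called higher, the cyclin gene Ccne2 (0.55, edgeR adjusted p 0.0494). Ccne2 was called in 4 of 11 alternatives, and DESeq2 called no factor. With T cell identity scaling 1 factor was called lower and none higher, and 8 genes of the chaperone list were called lower. Npat (−0.01), Slbp (0.08) and Casp8ap2 (0.04) had adjusted p of 0.951, 0.631 and 0.820.

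The difference between these lists and the members was not tested. T cell identity genes summed to 8554 and 8497 CPM in Ad-c-Rel, against 7965 and 8238 CPM in Ad-control, with 4 called higher and 1 lower of 12. Of 7 myeloid markers tested, 3 were called higher in Ad-c-Rel, namely Tmem119 (1.47), Cd68 (0.59) and Fcer1g (3.896), and 1 lower, Ctss (−0.28). Fcer1g was near the floor, with 1.02 and 0.791 CPM in Ad-c-Rel, against 0.130 and 0 CPM in Ad-control. The 20 myeloid markers summed to 255.2 and 248.6 CPM in Ad-c-Rel, against 270.2 and 277.2 CPM in Ad-control, with 7 and 6 at 0 in Ad-c-Rel, against 7 and 10 in Ad-control. Ctss took the most of these sums, with 124 and 124.8 CPM in Ad-c-Rel, against 157.2 and 157.2 CPM in Ad-control. B and plasma cell markers summed to 614.6 and 619.1 CPM in Ad-c-Rel, against 541.1 and 553.4 CPM in Ad-control. Most of these sums was Xbp1, with 522.1 and 534 CPM in Ad-c-Rel, against 450.1 and 471.5 CPM in Ad-control. The part of the myeloid and of the B and plasma cell markers in the histone values was not tested. Scaled to the T cell identity genes, the median of all genes moved by −0.13, and 22.1% of calls were higher, against 57.1% with the standard scaling.

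**Figure D5:**
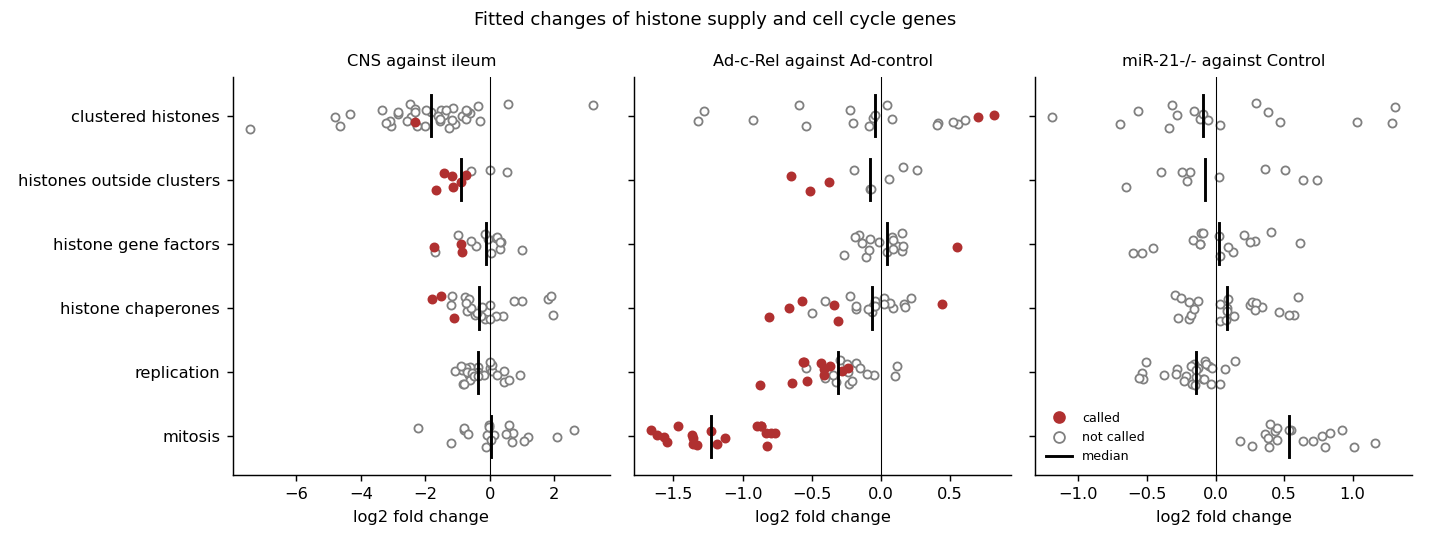
Log2 fold changes (horizontal axis) of the clustered histone genes and of 5 other lists in the 3 comparisons, a point per gene, filled where called, with a black bar at the median. In Ad-c-Rel against Ad-control all 19 mitosis genes lie below 0, with a median of −1.23, while the median of the clustered histone genes is −0.04.

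In TH17(23) cells lacking miR-21 no clustered histone gene was called in the edgeR fit without a replicate block or with DESeq2. The calls changed when such a block was added. Without miR-21-/- replicate 1, Hist1h4i was called higher (0.0327). Of 17 members tested, 10 lay below 0 and 7 above, where 51.8% of all genes lay below 0. The members' median log2 fold change was −0.09, against −0.02 over all genes. None of all 13428 genes was called by edgeR (0.00%). At an unadjusted p under 0.05 there were 3 members, where 21.0% of all genes lay, while DESeq2 called 325 genes higher and 468 lower. The groups did not overlap for 4 members higher (23.7% of all genes) and 4 lower (30.6%). Of the 58 members with a count, 41 did not pass the filter. Summed over all members, the level was 21.7 and 26.1 CPM in miR-21-/-, against 22.0 and 21.4 CPM in Control, and the groups overlapped.

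The smallest adjusted p belonged to the neighbours on chromosome 11 and to Hist1h2bj. Hist3h2ba, at 58948911 to 58949372, had 1.06 and 1.65 CPM in miR-21-/-, against 0.632 and 0.545 CPM in Control (1.28, SE 0.433, edgeR adjusted p 0.190). Hist3h2a had 1.90 and 2.59 CPM in miR-21-/-, against 1.26 and 1.06 CPM in Control (1.03, SE 0.372, adjusted p 0.205). Neither overlapped between the groups, and both overlap another RefSeq gene. Hist1h2bj had 0.517 and 0.275 CPM in miR-21-/-, against 0.879 and 1.01 CPM in Control (−1.19, SE 0.428, adjusted p 0.203), also without overlap.

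By type, H2A, H3 and H4 did not overlap between the groups. H2A had 2.93 and 3.75 CPM in miR-21-/-, against 2.75 and 2.75 CPM in Control, a ratio of 1.22. Of this, Hist3h2a alone had 1.90 and 2.59 CPM in miR-21-/-, against 1.26 and 1.06 CPM in Control. Of the 3 H2A genes tested, the other 2 were fitted below 0. The H3 sum was lower and the H4 sum higher. H3 had 2.33 and 1.71 CPM in miR-21-/-, against 2.99 and 3.02 CPM in Control, a ratio of 0.671. Hist1h3c had 0.833 and 0.702 CPM in miR-21-/-, against 1.10 and 1.50 CPM in Control (−0.70, SE 0.372, adjusted p 0.329). H4 had 4.19 and 6.90 CPM in miR-21-/-, against 3.30 and 4.03 CPM in Control, a ratio of 1.51. The H4 difference lay in Hist1h4i. The other 12 H4 genes, summed after the values were seen, had 1.95 and 1.16 CPM in miR-21-/-, against 1.95 and 1.93 CPM in Control, overlapping and lower on average. Hist1h4i had 78 and 188 counts in miR-21-/-, against 49 and 77 in Control (1.31, SE 0.574, adjusted p 0.263).

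The H1 genes overlapped between the groups. Hist1h1c had 1.38 and 0.885 CPM in miR-21-/-, against 1.59 and 1.04 CPM in Control (−0.16, adjusted p 0.838). Hist1h1e had 1.12 and 0.855 CPM in miR-21-/-, against 1.15 and 0.436 CPM in Control (0.38, adjusted p 0.689). Among the rest, Hist2h2be had 4.17 and 6.65 CPM in miR-21-/-, against 3.49 and 4.79 CPM in Control (0.47, adjusted p 0.496). Hist1h2bc lay lower in both libraries, with 1.61 and 1.80 CPM against 2.09 and 2.26 CPM (−0.28, adjusted p 0.635). Hist1h2ae (−0.09, adjusted p 0.920), Hist1h3e (0.03, adjusted p 0.966) and Hist1h4d (−0.34, adjusted p 0.683) were not called.

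Mitosis genes lay above 0 in this comparison, all 19 of 19, with a median of 0.54 and no call, and their summed level was 2494 and 3575 CPM in miR-21-/-, against 1827 and 2583 CPM in Control. Without miR-21-/- replicate 2, 16 of the 19 lay above 0. With all 4 libraries, DESeq2 called 4 of the 19 higher. The replication genes lay below 0 in 23 of 26, and in 16 of 26 with T cell identity scaling, with no call. Npat (0.29, adjusted p 0.349), Slbp (0.13, 0.603) and Casp8ap2 (0.25, 0.418) were not called. The members with polyadenylated counterparts took 32.9 and 35.8% of the counts on clustered histone genes in miR-21-/-, against 32.6 and 37.8% in Control.

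Hist1h1c was thus called lower in CNS against ileum and higher in Ad-c-Rel against Ad-control, and not called in miR-21-/- against Control. Whether its change differs between the comparisons was not tested.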

How the data were processed

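Values are whole-number read counts per gene, deposited by the authors as a table for each of 12 RNA-seq libraries. Per the submitters' processing notes, tools named for the series include CASAVA 1.4, Trim Galore 0.4.4, TopHat2 2.1.0 and HTSeq 0.11.0 with mm10. Annotation and strand setting were not given in the sources used here. Lines that name no gene (14.7 to 26.1% of reads) were left out. The 8 ATAC-seq samples were not analysed here.

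CPM is over all gene counts. Each of the 3 comparisons was fitted on its own 4 libraries (2 residual degrees of freedom) with edgeR 4.0.16 (filterByExpr, TMM, quasi-likelihood F test, Benjamini-Hochberg over all genes tested) in R 4.3.3, and DESeq2 1.42.0 was an alternative. SE was computed by dividing the absolute log2 fold change by the root of F. The scripts were tested on simulated data. Further alternatives were other size factors, T cell identity scaling, TMM without the members, no filter, replicate block, 1 fit over all 12 libraries, and each library left out. Python 3.11.15, pandas 2.3.3, scipy 1.17.1 and matplotlib 3.10.9 were used.

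The text names, in each comparison and type, the 2 members with the most counts, up to 8 called members per direction, or the 5 with the smallest p where none was called, up to 4 called genes of each other list, and Npat, Slbp and Casp8ap2. The members and lists were chosen with earlier results of these data known. Promoters and positions are from RefSeq on GRCm38.p6, the same build as mm10.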

Additional observations from a re-analysis of the deposited data

How the results depend on the processing

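In CNS against ileum, the call of Hist1h1c was lost under T cell identity scaling and kept under the other 10 alternatives. Members called lower numbered 3 with DESeq2, 0 under T cell identity scaling and 9 in the fit over 12 libraries, which called 1 higher. T cell identity scaling gave changes of 0.23 for Hist3h2a and 0.17 for Hist1h3f, and summed changes of −1.10 for all members and −0.39 for H2A, with −0.93 for H2A under TMM. Leaving out 1 library gave −1.13 to 0.15 for Hist1h2bc and −2.22 to 0.39 for Hist1h3f. In Ad-c-Rel against Ad-control, members called higher numbered 1 with DESeq2, 0 in the fit over 12 libraries and 1 to 2 with a library left out. Members called lower numbered 1 under T cell identity scaling, without the filter and with the replicate block. T cell identity scaling gave −0.049 for Hist1h1d, −0.052 for Slbp, −0.087 for Casp8ap2 and 0.23 for summed H2B, with 0.36 under TMM. With a library left out, Hist1h1d gave −0.16 to 0.27, Hist3h2a −0.33 to 0.26, Npat −0.058 to 0.027, Slbp −0.071 to 0.24 and Casp8ap2 −0.055 to 0.15. In miR-21-/- against Control, leaving out a library called 0 to 1 members higher (1 without miR-21-/- replicate 1), and gave −0.40 to 0.15 for Hist1h1c, −0.12 to 1.2 for Hist1h1e, −0.25 to 0.11 for Hist1h2ae and −0.11 to 0.19 for Hist1h3e. T cell identity scaling gave 0.003 for Hist1h2ae. The cause was not tested in any of these.

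Replicate numbers do not pair the libraries in the labels, and the correlation of same-numbered deviations was 0.0729, 0.107 and 0.659 in the 3 comparisons. With the replicate block, miR-21-/- against Control had 3 members called higher (Hist1h4i with an adjusted p of 0.00465, Hist3h2ba with 0.0198 and Hist3h2a with 0.0256) and 1 lower (Hist1h2bj with 0.0408). In Ad-c-Rel against Ad-control the block added Hist2h2ac as lower (0.0343), and Hist1h1c in CNS had −2.47 with an adjusted p of 0.0177. All genes called higher and lower then numbered 2287 and 2520 in the miR-21 pair and 1488 and 1314 in the Ad pair. In CNS against ileum, all genes called numbered 482 higher and 681 lower, against 1211 and 1331 with DESeq2, 1093 and 342 under T cell identity scaling, 1113 and 1300 without the filter, 1988 and 2012 in the fit over 12 libraries, and 319 to 1285 and 531 to 724 with a library left out (319 higher without CNS replicate 2, 1285 higher without ileum replicate 1). In the Ad pair they numbered 956 and 717, against 637 and 435 with DESeq2, 515 and 1816 under T cell identity scaling, 18 and 1 in the fit over 12 libraries, and 537 to 784 and 389 to 597 with a library left out (537 and 389 without Ad-c-Rel replicate 2, 541 and 394 without Ad-control replicate 1). In the miR-21 pair the counts of 0 and 0 became 325 and 468 with DESeq2, 9 and 31 without the filter, 2 and 1 under T cell identity scaling, and 1 to 666 and 1 to 661 with a library left out (666 and 661 without miR-21-/- replicate 1). Low counts limit the precision of most members.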

Other observations

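Counts of the H2A and H2B genes are given for 2 of the 9 head-to-head pairs among members with a promoter window. The 2 pairs were chosen after their values were seen. Hist1h2ae and Hist1h2bg had 66 and 68 counts in CNS replicate 1 and 90 and 79 in CNS replicate 2, against 133 and 41 in ileum replicate 1 and 133 and 38 in ileum replicate 2. Neither gene of that pair was called in CNS against ileum, with log2 fold changes of −1.09 (SE 1.00, edgeR adjusted p 0.597) for Hist1h2ae and 0.58 (SE 1.39, edgeR adjusted p 0.865) for Hist1h2bg. Hist1h2ag and Hist1h2bj had 14 and 19 counts in CNS replicate 1 and 0 and 20 in CNS replicate 2, against 24 and 118 in ileum replicate 1 and 10 and 154 in ileum replicate 2. No test was run on these ratios.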
